A study of Mus musculus with 6 samples.

Results

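Potassium channels and hyperpolarisation-activated (HCN) channels were followed in ribosome-bound RNA of serotonin neurons, set against the RNA that the purification left behind. The genes were those whose symbol is Kcn, a subfamily letter or letters and a number, or Hcn and a number. The G-protein-gated inward rectifiers (GIRK channels) Kcnj3, Kcnj5, Kcnj6 and Kcnj9 were left out. On the array 145 of 45101 probe sets, for 78 of 18193 named genes, met this definition, and 48 of the 78 genes were bright enough to be tested, among 10581 genes in all. Membership rested on the name of the gene alone, but this group of genes was chosen with earlier results of these data known. Genes of the Kcnb subfamily are not analysed here.

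RNA was prepared by TRAP (translating ribosome affinity purification). Ribosomes carrying a tag are pulled from a tissue lysate together with the mRNA they hold. The IP group held 3 samples of the purified RNA and the unbound group 3 samples of what remained in the lysate, each sample pooled from 5 mice. All mice were adults aged 6 to 12 weeks, male and female, of the Slc6a4 JD60 line on a mixed FVB and c57/bl6j background, and all tissue was midbrain and brainstem without cerebellum. Both groups therefore carry the same bacterial artificial chromosome transgene, in which the regulatory region of the serotonin transporter gene Slc6a4 sets which cells are tagged. Each array was made from 20 ng of total RNA after two-cycle amplification. Between IP and unbound RNA, a difference of cell type and one of binding to ribosomes cannot be told apart. In such bulk samples, fewer cells of a type and less RNA per cell cannot be told apart either.

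Potassium channels let potassium leave the cell, which holds the resting potential down, ends the action potential and sets the pause before the next one. Most voltage-gated ones are tetramers of pore subunits (Kcna, Kcnc, Kcnd, Kcnq, Kcnh) that gain their kinetics and their place in the membrane from auxiliary subunits. Inward rectifiers (Kcnj) and two-pore channels (Kcnk) act near rest, and calcium- or sodium-activated channels (Kcnma, Kcnn, Kcnt) carry much of the afterhyperpolarisation. HCN channels are relatives that pass an inward cation current on hyperpolarisation. Serotonin neurons are known for slow regular firing with a long afterhyperpolarisation, a transient A-type current and GIRK channels opened by their serotonin autoreceptors.

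The 4 members that rose in IP included Kcna5, while its genomic neighbours Kcna1 and Kcna6 fell. Kcna5, Kcna1 and Kcna6 follow one another on chromosome 6 in the RefSeq order of protein-coding genes. Genes of other kinds were not looked at. The start of Kcna5 and of Kcna6, and that of Kcna2, which fell as well, are shown because these are close relatives on opposite sides of the comparison. The 250 bases before each start are from RefSeq (build GRCm38.p6), read 5′ to 3′ on the strand of the gene, with CG dinucleotides in capitals. Kcna5 lies on the minus strand at chr6:126535556-126535805, Kcna6 on the minus strand at chr6:126740675-126740924 and Kcna2 on the plus strand at chr3:107101317-107101566.
Kcna5: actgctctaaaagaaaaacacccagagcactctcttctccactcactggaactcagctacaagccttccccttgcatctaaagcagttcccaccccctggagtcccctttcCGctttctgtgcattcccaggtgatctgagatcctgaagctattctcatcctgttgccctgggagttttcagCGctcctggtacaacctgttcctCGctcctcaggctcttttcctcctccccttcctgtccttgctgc
Kcna6: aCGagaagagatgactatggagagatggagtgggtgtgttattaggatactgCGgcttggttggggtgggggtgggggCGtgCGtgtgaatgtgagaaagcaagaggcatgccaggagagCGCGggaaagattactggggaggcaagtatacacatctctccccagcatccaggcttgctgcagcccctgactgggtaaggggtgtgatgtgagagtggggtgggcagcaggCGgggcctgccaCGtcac
Kcna2: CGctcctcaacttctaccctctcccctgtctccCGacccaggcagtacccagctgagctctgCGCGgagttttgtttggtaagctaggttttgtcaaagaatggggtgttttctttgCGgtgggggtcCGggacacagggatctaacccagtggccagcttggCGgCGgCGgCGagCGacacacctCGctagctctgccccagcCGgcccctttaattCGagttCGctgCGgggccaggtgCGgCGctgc
The Kcna5 stretch held 3 CG dinucleotides and 53.2% G or C, that of Kcna6 held 8 and 58.8%, and that of Kcna2 held 18 and 62.4%. The median over all 32851 RefSeq promoters was 6 CG dinucleotides and 52.4% G or C. Neither AGATAA or TGATAA (letters read by GATA factors, of which Gata2 and Gata3 act in serotonin neurons) nor CCGGAA (letters of the ETS family) nor TATAAA was found on either strand of the 3 stretches. At least one of the GATA forms was in 16.6% of all promoters, CCGGAA in 12.0% and TATAAA in 12.4%. Among the 82 promoter entries of 58 members, 7.32% held a GATA form, 6.10% held CCGGAA and 2.44% held TATAAA. Of the 4 members that rose, Kcna5 was the one with an entry.

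Values are log2 expression from the deposited table, with the IP arrays moved by -0.23 so that the biotin-labelled control probe sets had the same mean in both groups. A log2 value of 5 served as the detection limit, and testing a gene needed 3 or more of the 6 arrays to reach it. A gene was called, and is said to have risen or fallen, where limma's adjusted p was under 0.05 and the change was at least 2-fold. Changes are IP minus unbound, on the log2 scale, with the SE of the fit. Slc6a4 itself averaged 14.20 in IP and 9.05 in unbound RNA, and 8 of 8 serotonergic markers were called higher in IP. All 10 astrocyte, 9 oligodendrocyte, 6 GABAergic or glycinergic and 6 catecholaminergic markers tested were called lower. Over all tested genes 10.4% were higher and 41.1% lower. Lmx1b reached the limit on IP arrays alone, which fixed its direction. So did unbound arrays alone for Olig2, Tal1, Th, Slc6a2 and 5 astrocyte markers. Of the tested markers, 1 of 8 microglial, 1 of 4 ependymal or choroid plexus and 1 of 10 pan-neuronal ones were higher, and 7, 3 and 4 lower. Of 5 oligodendrocyte precursor markers, 4 were lower (Pdgfra, Cspg4, Vcan and Gpr17). These 4 passed the filter through unbound arrays alone, which fixed their direction. The same holds for Cx3cr1, C1qa, Tyrobp and Tmem119 of the microglial list and Ccdc153 and Clic6 of the ependymal list. Aif1, the microglial marker that was higher, passed through IP arrays alone. Pairs of arrays correlated over all probe sets with a Pearson's r of 0.996 to 0.999 within IP, of 0.994 to 0.997 within unbound RNA, and of 0.924 to 0.932 across the groups. In 15.8% of the IP probe sets at the limit or above, against 0.482% of the unbound ones, the deposited value was identical on all 3 arrays. Of the 34 tested members with an IP mean at the limit or above, 10 had 3 identical IP values. Over all 48 tested members, those below the limit in IP included, 20 did. For these genes the spread within IP, and with it the SE, was not fully measured.

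Of the 48 tested members, 4 rose in IP (Hcn3, Kcna5, Kcnj11 and Kcnu1), 30 fell and 14 were not called. That is 8.33% higher and 62.5% lower, set against 10.4% higher and 41.1% lower over all tested genes. These counts depended on the scaling and on single arrays. With array medians over all probe sets, 7 of 44 tested members were higher and 15 lower (33.9% and 19.5% of all genes tested there). Leaving out 1 array gave 2 to 4 members higher and 14 to 32 lower (7.5% to 12.7% and 30.1% to 44.4% of all genes tested there). The count of 2 came without IP replicate 1 or unbound replicate 3. Counts of 14, 17 and 16 lower came without unbound replicate 1, 2 and 3, where 35, 34 and 34 members were tested. With an unbound array left out, a member below the limit on all IP arrays cannot reach it on 3 arrays and so is not tested. The median change was -1.25 for the members and -0.65 for all tested genes, and 34 members lay below the median gene and 14 above it. Of the 30 that fell, 14 were below the limit on all 3 IP arrays and so passed the filter through the unbound arrays alone, which fixed their direction. With values below the limit set to it, 23 members were lower, and Kcnd1, Kcnh1, Kcnip3, Kcnk6, Kcnk10, Kcnk13 and Kcns3 were no longer called. Among the 33 members with both group means at the limit or above, 4 rose (12.1%) and 16 fell (48.5%). The corresponding shares of 8856 genes were 10.4% and 33.2%, with a median change of -0.89 for the members and -0.43 for the genes. All 3 IP values lay above all 3 unbound values for 6 members and below them for 38, while the groups overlapped for Kcna4, Kcnf1, Kcnip1 and Kcns2. Over all tested genes, 23.9% had IP wholly above unbound and 59.1% wholly below.

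**Figure D1:**
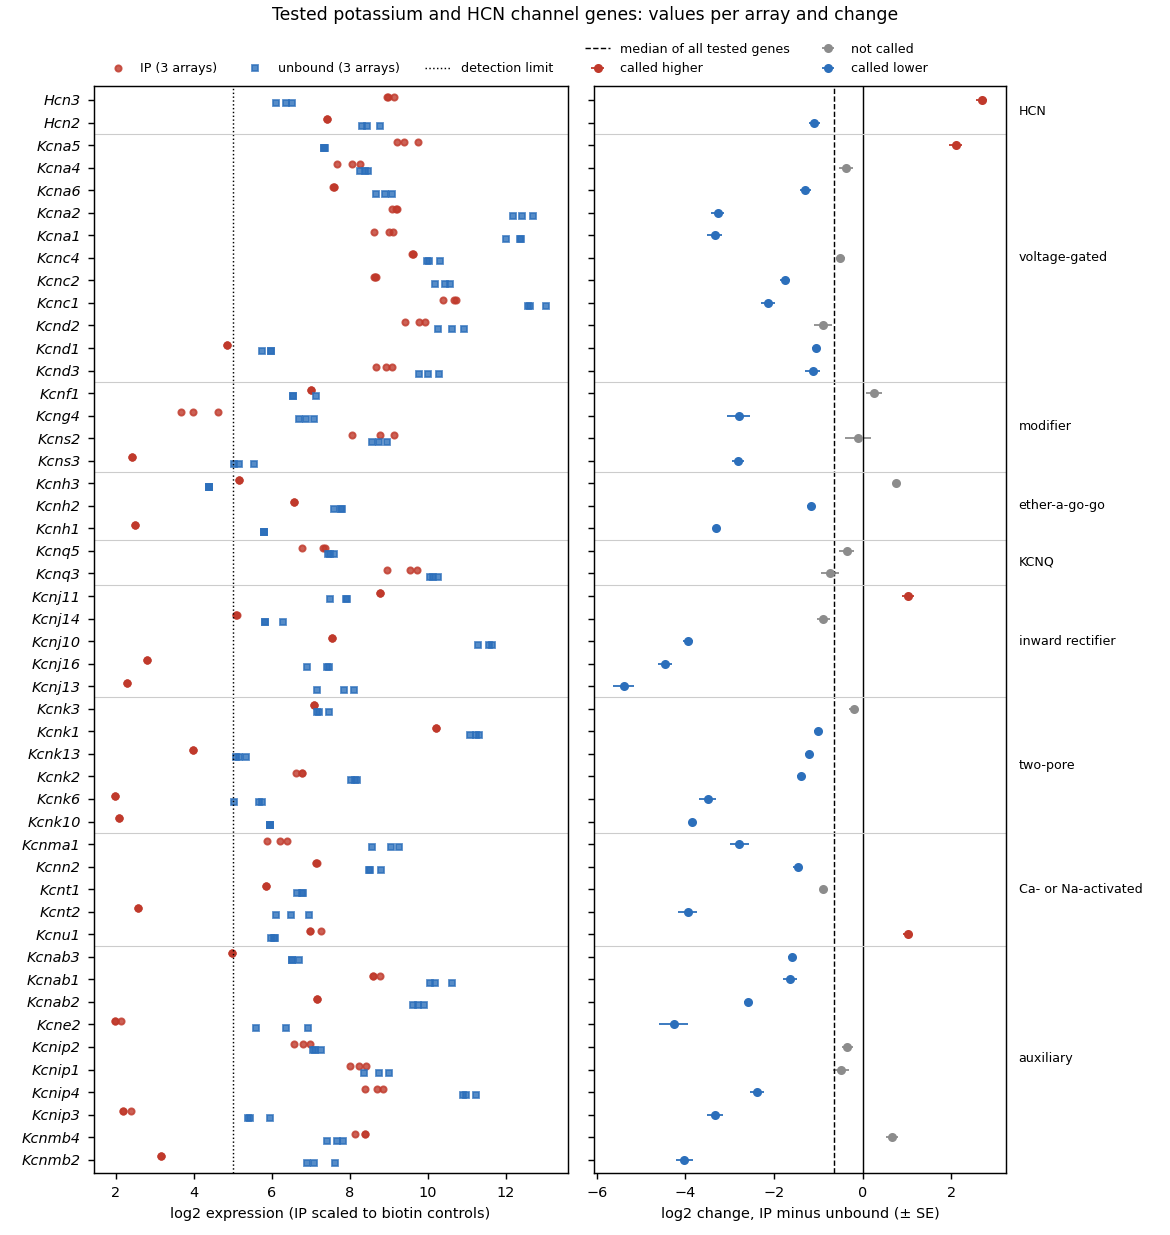
Left, log2 expression of each of the 48 tested members on each array, with 3 IP arrays as circles, 3 unbound arrays as squares and the detection limit dotted. Right, the log2 change, IP minus unbound, with its SE, coloured by call and grouped by role: 4 members are called higher and 30 lower, and the dashed line is the median of all tested genes at -0.65.

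Hcn3 and Hcn2 were tested, and Hcn3 rose while Hcn2 fell. Hcn3, an HCN pore subunit, had 8.95, 8.98 and 9.13 in IP, against 6.10, 6.51 and 6.36 in unbound RNA. Every IP value was more than 2 log2 units above every unbound value. The change was 2.69 ± 0.13 (a 6.47-fold higher level, adjusted p = 6.20e-06), above that of 98.7% of tested genes. Hcn2, the HCN subunit found widely in the brainstem and thalamus, had 7.42 on each IP array, against 8.77, 8.32 and 8.43 in unbound RNA. Its groups did not overlap and it fell by 1.09 ± 0.13 (adjusted p = 3.66e-04), but the change was under 2-fold with no scaling between groups (-0.86), without IP replicate 2 (-0.96) and without unbound replicate 1 (-0.90). With array medians over all and over expressed probe sets and with quantile normalisation it was at -0.060, -0.41 and -0.31 and not called.

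Among the voltage-gated pore subunits, 11 of 13 were tested, 1 rose (Kcna5) and 7 fell. Kcna5, a delayed rectifier best known from the heart and from smooth muscle, had 9.20, 9.38 and 9.74 in IP, against 7.37, 7.32 and 7.33 in unbound RNA. The groups were well apart, with a change of 2.10 ± 0.15 (4.29-fold, adjusted p = 3.19e-05), a larger change than that of 97.8% of tested genes. Kcna1, a low-threshold channel subunit of axons that is mutated in episodic ataxia, had 9.09, 8.999 and 8.62 in IP, against 12.34, 12.01 and 12.38 in unbound RNA. Its partner Kcna2, which sits beside the nodes of Ranvier in the same tetramers, had 9.08, 9.20 and 9.17 in IP, against 12.69, 12.17 and 12.41 in unbound RNA. Both were far lower on every IP array. Kcna1 fell by 3.34 ± 0.17 (10.1-fold lower, adjusted p = 8.01e-06) and Kcna2 fell by 3.27 ± 0.14 (9.66-fold lower, adjusted p = 4.65e-06). Kcna6, a relative that can join them, had 7.57, 7.59 and 7.58 in IP, against 8.65, 9.07 and 8.89 in unbound RNA, and fell by 1.29 ± 0.12. Kcna6 was not called with array medians (-0.26 over all and -0.61 over expressed probe sets) or quantile normalisation (-0.56). Kcna4, an A-type subunit with fast inactivation, had 7.67, 8.05 and 8.26 in IP, against 8.38, 8.46 and 8.25 in unbound RNA. Its groups overlapped and it was not called (change -0.37 ± 0.16, adjusted p = 0.0780). Its change was positive with array medians (0.66 over all and 0.31 over expressed probe sets) and with quantile normalisation (0.37).

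**Figure D2:**
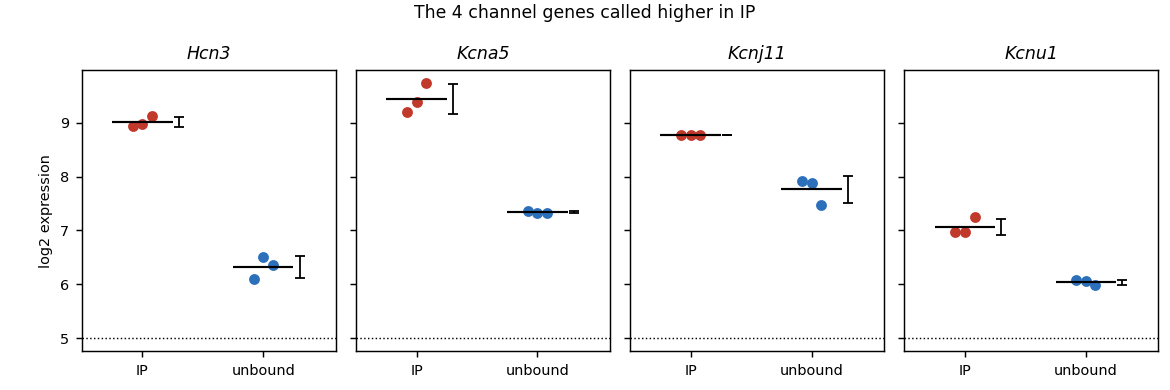
Log2 expression on each array of the 4 members that rose, with IP left of unbound in each panel and the mean and SD (n = 3) of each group. All 3 IP values lie above all 3 unbound values for Hcn3, Kcna5, Kcnj11 and Kcnu1, with a larger gap for Hcn3 and Kcna5 (changes of 2.69 and 2.10) than for Kcnj11 and Kcnu1 (1.02 each).

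The Kcnc subunits carry the fast delayed rectifier that lets neurons fire at high rates, and 2 of the 3 fell. Kcnc1 had 10.38, 10.72 and 10.66 in IP, against 13.02, 12.60 and 12.55 in unbound RNA, and fell by 2.14 ± 0.16 (adjusted p = 4.84e-05). Kcnc2 had 8.62, 8.66 and 8.64 in IP, against 10.57, 10.18 and 10.43 in unbound RNA, and fell by 1.75 ± 0.11 (-0.72 and not called with array medians over all probe sets). For both genes every IP value was below every unbound value. Kcnc4, a subunit with A-type inactivation, had 9.62, 9.62 and 9.58 in IP, against 10.03, 10.31 and 9.98 in unbound RNA. The change of Kcnc4 was under 2-fold (-0.50 ± 0.11), and was 0.53 and 0.18 with array medians over all and over expressed probe sets. Fast-firing GABAergic neurons are a known site of Kcnc1 and Kcnc2. The summed linear level of the 6 GABAergic or glycinergic markers, as log2, was 11.5 to 12.0 on IP arrays and 14.2 to 14.5 on unbound arrays. Among these markers Tal1 was below the limit on every IP array and Pvalb was at 9.76 in IP and 13.10 in unbound RNA. The part of these cells in the Kcnc values was not tested.

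The Kcnd genes encode the pores of the somatodendritic A-type current, the current that slows the approach to the next spike. Kcnd2 had 9.41, 9.78 and 9.92 in IP, against 10.91, 10.27 and 10.61 in unbound RNA. Kcnd3 had 8.93, 8.67 and 9.07 in IP, against 10.28, 9.77 and 10.00 in unbound RNA. Neither gene's groups overlapped. Kcnd3 fell by 1.13 ± 0.17 (adjusted p = 1.05e-03), while Kcnd2, with -0.89 ± 0.21 (adjusted p = 7.82e-03), changed by less than 2-fold and was at 0.14 with array medians over all probe sets. Kcnd1 was at 4.84 on each IP array and at 5.97, 5.97 and 5.75 in unbound RNA, at least 1.86-fold lower. With quantile normalisation Kcnd1 turned to a change of 0.37, and without any scaling Kcnd3 and Kcnd1 were both under 2-fold (-0.89 and -0.82). Kcnd3 was at -0.099, -0.45 and -0.61, and not called, with array medians over all and over expressed probe sets and with quantile normalisation, and Kcnd1 was at -0.024 and -0.37 with the medians. Without IP replicate 2, Kcnd3 (-0.89) and Kcnd1 (-0.92) were under 2-fold, as was Kcnd3 without unbound replicate 1 (-0.94). Kcnd2 was past 2-fold and called lower without IP replicate 3 (-1.009) or unbound replicate 2 (-1.09).

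Of the 9 modifier subunits, which form no channel alone and join Kcnb pores, 4 were tested and 2 fell. Kcng4 had 4.62, 3.67 and 3.97 in IP, against 7.08, 6.70 and 6.87 in unbound RNA, at least 3.69-fold lower. Kcns3 was at 2.43 on each IP array and at 5.54, 5.16 and 5.04 in unbound RNA, at least 1.19-fold lower. These are lower bounds, since both were below the limit in IP. Kcnf1 was at 6.996 on each IP array and at 7.13, 6.53 and 6.53 in unbound RNA, and Kcns2 had 8.04, 9.12 and 8.77 in IP, against 8.73, 8.57 and 8.95 in unbound RNA. The groups overlapped for Kcnf1 and Kcns2, and neither was called (0.26 ± 0.18 and -0.10 ± 0.28). Kcnf1 was positive in every scaling but that to the poly-A controls (-2.41), and was called higher with array medians over all probe sets (1.29) and quantile normalisation (1.27). Kcns2 was positive without scaling (0.13), with array medians (0.92 and 0.58) and with quantile normalisation (0.56). Both Kcnv genes, further modifiers, were below the limit in both groups.

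Among the ether-a-go-go channels, Kcnh1 and Kcnh2 fell and Kcnh3 was not called. Kcnh2, the ERG channel that also repolarises the heart, was at 6.56 on each IP array and at 7.77, 7.59 and 7.81 in unbound RNA, and it fell by 1.17 ± 0.08. It was not called with no scaling (-0.93), array medians over all (-0.14) or expressed probe sets (-0.49) or quantile normalisation (-0.26). Kcnh1 was at 2.49 on each IP array and at 5.79, 5.81 and 5.79 in unbound RNA, at least 1.74-fold lower. The groups were apart for both genes. Kcnh3, an ELK-type channel of the forebrain, was at 5.15 on each IP array and at 4.39 on each unbound array, at least 1.11-fold higher and under the 2-fold threshold at a change of 0.76 ± 0.07. Kcnh3 passed the filter through the IP arrays alone, which fixed its direction. With array medians over all probe sets, array medians over expressed ones or quantile normalisation, Kcnh3 was called higher (1.79, 1.44 and 2.20). The dimmer probe sets of Kcnh3, not tested, had lower values in IP. The brightest of them was at 1.98 on each IP array, against 3.21, 5.58 and 4.59 in unbound RNA. Neither tested KCNQ gene, pores of the muscarine-sensitive M current, was called. Kcnq3 had 8.95, 9.55 and 9.70 in IP, against 10.26, 10.04 and 10.13 in unbound RNA (-0.74 ± 0.21, but 0.29 with array medians over all probe sets). Kcnq5 had 6.77, 7.36 and 7.31 in IP, against 7.48, 7.60 and 7.44 in unbound RNA (-0.36 ± 0.17, but 0.67, 0.32 and 0.53 with both array medians and quantile normalisation). The groups did not overlap for Kcnq3 or Kcnq5, but the gaps were small.

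Among the inward rectifiers other than GIRK, 5 of 11 were tested, 1 rose (Kcnj11) and 3 fell (Kcnj10, Kcnj13 and Kcnj16). Kcnj11, the pore of the ATP-sensitive channel that closes when ATP is plentiful, was at 8.78 on each IP array and at 7.92, 7.89 and 7.48 in unbound RNA. All IP values lay above the unbound ones, with a change of 1.02 ± 0.13 (2.03-fold, adjusted p = 6.00e-04). The change was under 2-fold without IP replicate 1 (0.90) and without unbound replicate 3 (0.85). The sulfonylurea receptors that complete this channel did not rise with it. Abcc8 fell by 1.43 ± 0.10, with 5.57 on each IP array and a mean of 6.996 in unbound RNA. With array medians over all or over expressed probe sets the change of Abcc8 was under 2-fold. Abcc9 was below the limit on every IP array and at a mean of 6.30 in unbound RNA, at least 2.46-fold lower. The other pore of ATP-sensitive channels, Kcnj8, averaged 3.72 in IP and 3.97 in unbound RNA and was not tested. Abcc9 is also a pericyte marker and stands among the 6 tested pericyte and smooth muscle markers. All 6 fell, set against 41.1% of all tested genes. Abcc9, Vtn, Cspg4 and Pdgfrb passed the filter through unbound arrays alone, which fixed their direction. Acta2 (5.63 in IP, 8.47 in unbound RNA) and Rgs5 (6.60 and 9.44) reached the limit in both groups. The summed level of the list, Abcc9 included, was 7.38 to 7.64 on IP and 10.2 to 10.8 on unbound arrays. The part of these cells in the Abcc9 value was not tested.

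Kcnj10, the main potassium-buffering channel of astrocytes, was at 7.55 on each IP array and at 11.64, 11.28 and 11.55 in unbound RNA, and fell by 3.94 ± 0.11 (15.3-fold lower, adjusted p = 9.56e-07). Kcnj16, which forms mixed channels with it, was at 2.80 on each IP array and at 7.45, 6.91 and 7.41 in unbound RNA, at least 4.79-fold lower. Kcnj13, a channel of the choroid plexus epithelium, was at 2.30 on each IP array and at 8.09, 7.15 and 7.84 in unbound RNA, at least 6.47-fold lower. The groups were far apart for all 3 genes, with IP values of Kcnj16 and Kcnj13 below the limit. The summed level of the 10 astrocyte markers was 11.3 to 11.5 on IP and 14.2 to 14.8 on unbound arrays, with Slc1a3, Aldh1l1, Fgfr3, Sox9 and Acsbg1 below the limit on every IP array. The 6 ependymal and choroid plexus markers summed to 13.6 to 14.1 on IP and 15.3 to 15.7 on unbound arrays. This sum is nearly all Ttr, which had 14.10, 13.58 and 13.70 in IP, against 15.68, 15.27 and 15.61 in unbound RNA. Foxj1, Ccdc153, Clic6 and Folr1 were below the limit in IP. Foxj1 was below it in unbound RNA as well, and Dynlrb2 of the same list was called higher in IP (1.06). The part of either cell type in these values was not tested. Kcnj14 had 5.10, 5.09 and 5.09 in IP, against 6.29, 5.83 and 5.83 in unbound RNA. It was not called (-0.89 ± 0.14), except without IP replicate 1 (-1.02, lower), and was at 0.14 with array medians over all probe sets and 0.48 with quantile normalisation.

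Of the 12 two-pore channels, 6 were tested and 5 fell, of which Kcnk6, Kcnk10 and Kcnk13 passed the filter through unbound arrays alone. The number lower was 3 without scaling, 1 with either array median or quantile normalisation, and 2 with values below the limit set to it. It was 1, 2 and 2 without unbound replicate 1, 2 and 3, where Kcnk6, Kcnk10 and Kcnk13 could not pass the filter. Kcnk2 and Kcnk10 encode mechanically and lipid gated leak channels. Kcnk2 had 6.77, 6.77 and 6.62 in IP, against 8.14, 8.04 and 8.18 in unbound RNA, and fell by 1.40 ± 0.09 (adjusted p = 1.86e-05). Kcnk2, with array medians over all and over expressed probe sets and with quantile normalisation, was at -0.37, -0.72 and -0.54 and not called. Kcnk10 was at 2.09 on each IP array and 5.95 on each unbound array, at least 1.93-fold lower. The IP values of both lay wholly below the unbound ones. Kcnk1, a weakly conducting channel widespread in brain, was at 10.20 on each IP array and at 11.31, 11.07 and 11.23 in unbound RNA. It fell by 1.01 ± 0.09, just over 2-fold, was under 2-fold without scaling (-0.77), IP replicate 2 (-0.88) or unbound replicate 1 (-0.90), and was at 0.021 with array medians over all probe sets. Kcnk6, a channel of lysosomal membranes, was below the limit in IP and at 5.75, 5.66 and 5.03 in unbound RNA, at least 1.39-fold lower. Kcnk13, known from microglia, was at 3.98 on each IP array and at 5.34, 5.09 and 5.15 in unbound RNA, at least 1.14-fold lower (a change of -0.98 and no call without scaling). The 10 microglia markers summed to 9.16 to 9.40 on IP and 12.0 to 12.3 on unbound arrays, with Cx3cr1, C1qa, C1qc, Tyrobp, P2ry12 and Tmem119 below the limit in IP. C1qc and P2ry12 were below it in unbound RNA too, and Aif1 of the same list was called higher in IP (1.02). Aif1 reached the limit on IP arrays alone, which fixed its direction, and was at least 1.66-fold higher. The part of these cells in the Kcnk13 value was not tested. Kcnk3, the acid-sensitive leak channel TASK-1, was at 7.07 on each IP array and at 7.47, 7.15 and 7.22 in unbound RNA. The change of Kcnk3 was not called (-0.20 ± 0.10, adjusted p = 0.113), and it was positive without scaling (0.031), with array medians (0.83 and 0.48) and with quantile normalisation (0.72).

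Among the calcium- or sodium-activated channels, with their pH-gated relative Kcnu1 counted in, 5 of 8 were tested. Of these, 1 rose (Kcnu1) and 3 fell. Kcnu1, the pH-gated relative of the BK channel known from sperm, had 6.97, 6.97 and 7.25 in IP, against 6.08, 6.06 and 5.99 in unbound RNA. The groups did not overlap, and the change was 1.02 ± 0.10 (2.03-fold, adjusted p = 1.61e-04). Leaving out IP replicate 1, IP replicate 3 or unbound replicate 3 brought it under 2-fold (0.95, 0.92 and 0.97). Kcnma1, the pore of the BK channel opened by calcium and depolarisation, had 5.88, 6.22 and 6.39 in IP, against 8.57, 9.04 and 9.25 in unbound RNA. It fell by 2.79 ± 0.22 (6.90-fold lower, adjusted p = 5.23e-05), with the groups far apart. Its auxiliary subunit Kcnmb4, the main neuronal beta subunit, had 8.14, 8.37 and 8.37 in IP, against 7.66, 7.42 and 7.82 in unbound RNA. Every IP value of Kcnmb4 was above every unbound one, but the change was under 2-fold (0.66 ± 0.13, adjusted p = 4.22e-03). Kcnmb4 was called higher with both array medians (1.69 and 1.34) and with quantile normalisation (1.45), and was at -2.02 with the poly-A controls. Kcnmb2, a beta subunit that inactivates BK channels, was at 3.17 on each IP array and at 7.61, 6.90 and 7.08 in unbound RNA, at least 4.59-fold lower.

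Kcnn2, an SK channel of the afterhyperpolarisation, had 7.17, 7.12 and 7.12 in IP, against 8.79, 8.49 and 8.51 in unbound RNA, and fell by 1.46 ± 0.11. Kcnn2 was not called with array medians (-0.43 over all and -0.78 over expressed probe sets) or quantile normalisation (-0.68). Its relatives did not pass the filter by their brightest probe sets. Kcnn3, which is known from monoamine neurons, was at 3.42 on each IP array and 2.17 on each unbound array, all below the limit, and Kcnn1 averaged 2.99 in IP and 5.12 in unbound RNA. A dimmer probe set of Kcnn1 passed, with 2.79, 2.79 and 2.64 in IP, against 5.21 on each unbound array, and was at least 1.16-fold lower. The sodium-activated channels both had lower values in IP. Kcnt2 was at 2.57 on each IP array and at 6.96, 6.10 and 6.48 in unbound RNA, at least 2.86-fold lower. Kcnt1 was at 5.85 on each IP array and at 6.79, 6.65 and 6.76 in unbound RNA, a change under 2-fold (-0.88 ± 0.07) that was 0.15 with array medians over all probe sets and 0.26 with quantile normalisation. Without IP replicate 1 it was called lower, at -1.005.

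Of the other auxiliary subunits, all 3 Kcnab genes fell. Kcnab1 and Kcnab2 encode cytoplasmic beta subunits of Kcna channels. Kcnab1 had 8.76, 8.59 and 8.59 in IP, against 10.63, 10.05 and 10.18 in unbound RNA (fell by 1.64 ± 0.16). Kcnab2 was at 7.15 on each IP array and at 9.63, 9.73 and 9.89 in unbound RNA (fell by 2.60 ± 0.09). Kcnab3 was at 4.97 on each IP array and at 6.69, 6.51 and 6.51 in unbound RNA, at least 2.97-fold lower. Kcnab1 was not called with array medians (-0.61 over all and -0.96 over expressed probe sets), and Kcnab3 was not called with these (-0.57 and -0.92) or with quantile normalisation (-0.32). On every IP array these beta subunits were below all unbound values, as were Kcna1 and Kcna2. Kcne2, a single-pass subunit rich in choroid plexus, had 2.12, 1.99 and 1.99 in IP, against 6.93, 5.59 and 6.36 in unbound RNA, at least 2.46-fold lower. The choroid plexus marker values given with Kcnj13 stand beside it too, and their part was not tested.

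The Kcnip genes encode calcium-binding partners that bring Kcnd pores to the membrane. Kcnip4 had 8.85, 8.40 and 8.70 in IP, against 10.96, 10.88 and 11.23 in unbound RNA, and fell by 2.38 ± 0.15 (adjusted p = 2.37e-05). Kcnip3, which is also a transcriptional repressor, had 2.39, 2.20 and 2.20 in IP, against 5.45, 5.38 and 5.95 in unbound RNA, at least 1.51-fold lower. Kcnip1 and Kcnip2 were not called. Kcnip1 had 8.41, 7.99 and 8.24 in IP, against 8.99, 8.37 and 8.75 in unbound RNA, with overlapping groups and a change of -0.49 ± 0.19 that was 0.54, 0.19 and 0.22 with both array medians and quantile normalisation. Kcnip2 had 6.97, 6.80 and 6.58 in IP, against 7.05, 7.26 and 7.09 in unbound RNA, with no overlap and a change of -0.35 ± 0.12 that was 0.68, 0.33 and 0.62 under the same 3 scalings. The other partners of Kcnd pores, Dpp6 and Dpp10, were at 10.07 and 11.16 in IP and at 10.01 and 11.03 in unbound RNA. Neither was called (0.05 ± 0.18 and 0.14 ± 0.13), and both were negative with the poly-A controls (-2.62 and -2.54). Both were called higher with array medians over all probe sets (1.08 and 1.16).

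Of 19 genes for proteins that assemble with or anchor these channels, 16 were tested, 0 rose and 9 fell, with a median change of -1.22, set against 10.4% higher and 41.1% lower over all tested genes. Abcc9 and Lrrc38 passed the filter through unbound arrays alone. Counts were 4 higher and 3 lower with array medians over all probe sets, 1 and 3 with those over expressed ones, 1 and 6 with quantile normalisation, 0 and 16 with the poly-A controls, 0 and 5 with the mean of probe sets, and 0 and 6 with a limit of log2 7 or without unbound replicate 1. This list was chosen with earlier results of these data known. The partners that hold Kcna channels beside the node, the contactin Cntn2 (5.06 in IP, 8.44 in unbound RNA, fell by 3.38 ± 0.15) and Adam22 (fell by 1.33 ± 0.21), were lower, and so was the Kcna-associated secreted protein gene Lgi1 (fell by 1.12 ± 0.11). Lgi1 was under 2-fold without scaling (-0.88), IP replicate 2 (-0.98) or unbound replicate 1 (-0.996). Cntnap2, the other juxtaparanodal partner, was at 11.37 in IP and 10.66 in unbound RNA, a change of 0.71 ± 0.07, under 2-fold. It was called higher with array medians over all (1.74) and over expressed probe sets (1.40), and was -1.96 with the poly-A controls and -0.36 as a mean of its probe sets. Ank3, the ankyrin that anchors Kcnq channels at the axon initial segment, fell by 2.97 ± 0.16. Dlg1, a scaffold of Kcna channels, fell by 1.34 ± 0.08, Vapb, which clusters Kcnb channels, fell by 1.39 ± 0.07, and Lrrc38, a BK channel subunit gene, was at least 1.06-fold lower. With array medians over all or over expressed probe sets, Adam22, Lgi1, Dlg1 and Vapb were under 2-fold. Amigo1 (-0.54), the HCN partner Pex5l (-0.91), Dlg2 (-0.46) and Vapa (-0.39) were not called, and each turned positive under at least one other scaling. Pex5l was called lower without IP replicate 1 (-1.03) or unbound replicate 2 (-1.14). The oligodendrocyte markers, which mark myelinated tissue, were lower as well, with a summed level of 14.2 to 14.7 on IP and 16.5 to 16.7 on unbound arrays. Their part in the values of the nodal partners was not tested.

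Of the 30 members that were not tested, 21 had both group means under 3. The highest group mean among the 30 was 5.12, that of Kcnn1 in unbound RNA. Kcnh8 (4.27 in IP, 4.99 in unbound RNA) was near the limit in both groups. Apart from the dimmer probe set of Kcnn1, these genes were compared only in alternatives with another filter or scaling.

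For 16 members more than 1 probe set was tested. The other probe sets agreed in call with the brightest one for Kcna1, Kcna2, Kcna6, Kcnab2, Kcnh1, Kcnip4, Kcnj16, Kcnma1 and Kcnmb2, all lower, and for Kcnc4 and Kcnip1, not called. The change of Kcna6 was -1.29 by the brightest probe set and -3.54 by the other. For Kcnc1 the brightest probe set and one other were lower (-2.14 and -2.51), while a further one was at 7.51, 7.78 and 8.08 in IP, against 7.18, 7.002 and 7.17 in unbound RNA (0.68, not called). Kcnk1 was lower by the brightest probe set (-1.01) and not called by the other (-0.22). For Kcnd2, Kcnq5 and Kcnt1 the brightest probe set was not called, and at least one dimmer one was called lower. This was a change of -1.61 for Kcnd2. The dimmer probe sets were below the limit in IP for Kcnq5, at least 1.799-fold lower, and for Kcnt1, at least 2.57-fold and 1.88-fold lower. Which transcript ends these probe sets read was not examined. A dimmer probe set of Kcns2, not tested, had 4.69, 4.93 and 4.76 in IP, against 3.01, 2.69 and 2.70 in unbound RNA. The second probe set of Kcnj11 was below the limit in both groups, and Kcnj11 was not called with the mean of its probe sets. Hcn3, Kcna5 and Kcnu1 have 1 probe set each. Each of the 4 rises therefore rests on a single probe set.

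**Figure D3:**
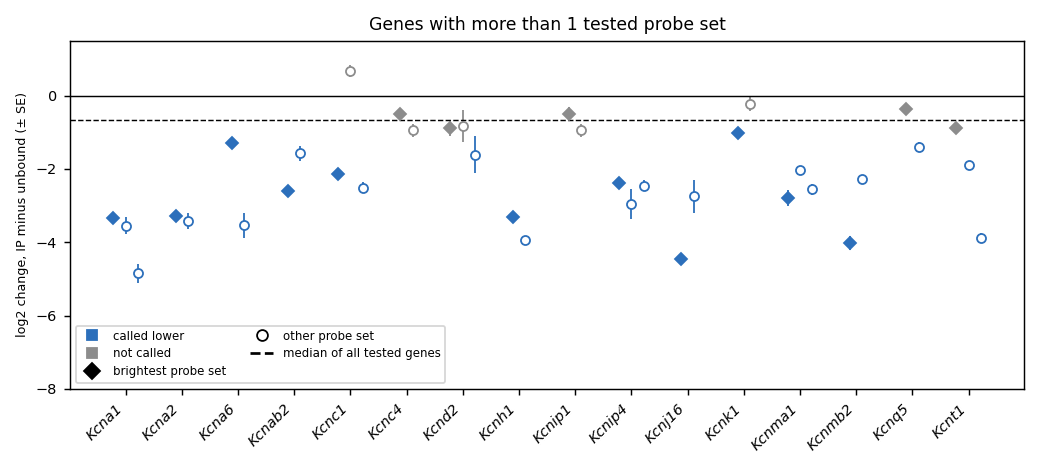
Log2 change, IP minus unbound, with its SE, for each tested probe set of the 16 members that have more than 1, with the brightest as a diamond and the others as open circles, coloured by call. Kcnc1 is the gene with changes of both signs (-2.14, 0.68 and -2.51), and the dashed line is the median of all tested genes at -0.65.

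The deposited values of each group were normalised separately, so how high one stands against the other depends on the scaling. The median change of all tested genes was -0.65 with the biotin controls, -0.66 with each array's own biotin controls, -0.41 with none, 0.04 with quantile normalisation, 0.07 and 0.44 with array medians over expressed and over all probe sets, and -3.37 with the poly-A controls. The 4 members that rose were called higher in every scaling but that to the poly-A controls, where 0 of 47 tested members were higher and 45 lower. Of all genes tested with the poly-A controls, 0.34% were higher and 97.1% lower. There Hcn3 was at 0.016, Kcna5 at -0.58, Kcnj11 at -1.66 and Kcnu1 at -1.65. Relative to the median gene of the main scaling, Hcn3 was 3.34 higher, Kcna5 2.75 higher, Kcnj11 and Kcnu1 1.67 higher, and Kcnj10 3.29 lower. Of the 30 members that fell, 18 were called lower in every scaling in which they were tested, 14 of them tested and called in all 6 alternative scalings. Among the 18 were Kcna1, Kcna2, Kcnc1, Kcnip4, Kcnj10 and Kcnma1. The sign was kept for 28 and lost for Kcnd1 and Kcnk1.

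**Figure D4:**
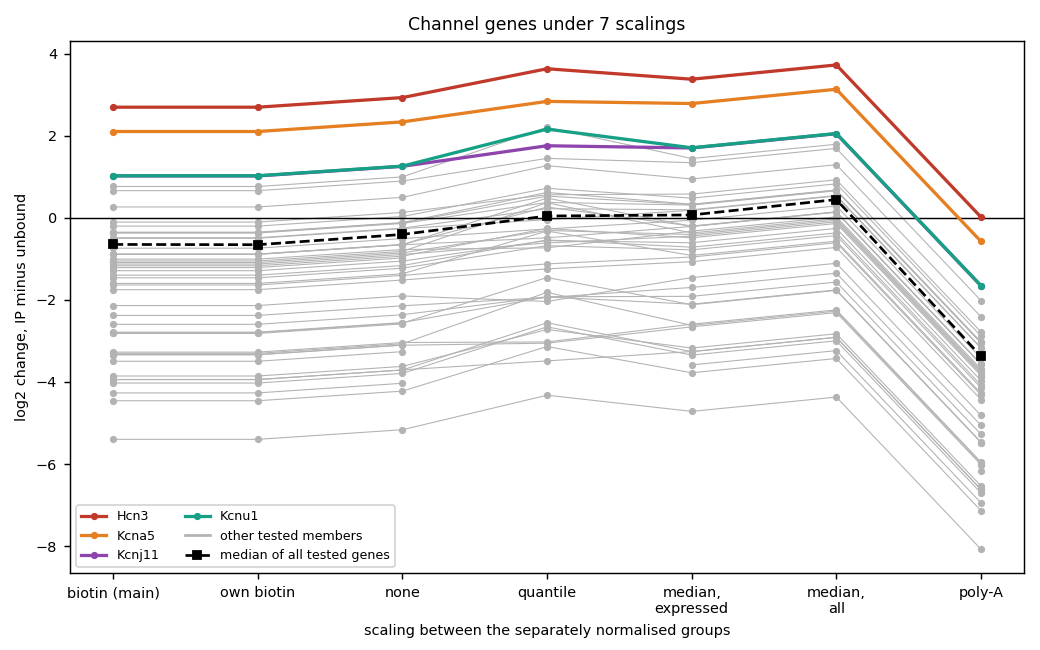
Log2 change, IP minus unbound, of each of the 48 tested members under 7 scalings between the groups, with Hcn3, Kcna5, Kcnj11 and Kcnu1 in colour and the median of all tested genes dashed. The whole set moves with the median gene, which runs between -3.37 with the poly-A controls and 0.44 with array medians over all probe sets, and the 4 coloured genes lie above it in each scaling.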

How the data were processed

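RNA of 3 IP and 3 unbound samples, each a biological replicate per the labels, was measured on 1 Affymetrix array per sample, and the number of arrays limits the precision. The deposited log2 values are the authors' GCRMA output, per the submitters' processing notes. IP and unbound arrays were normalised apart from each other, per the series' design text. No GCRMA version is given in the sources used here. The log2 scale was read from the values, with a floor of 2.22 in IP and 2.17 in unbound RNA. Adding -0.23 to the IP values, the mean difference over 18 biotinylated control probe sets, follows the submitters' recommendation.

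Genes were named from the platform annotation by 34945 probe sets with 1 symbol, and each gene was read by its brightest probe set. Genes with at least 3 of 6 arrays at a log2 value of 5 were tested two-sided between the groups with limma 3.58.1 (lmFit and eBayes, in R 4.3.3), with Benjamini-Hochberg adjustment over all 10581 genes. The fit was tested on simulated data. For a fold given as "at least", arrays of the dim group under the limit were raised to 5 before averaging. Levels of different probe sets were not compared. Array symbols of all 78 members were found in RefSeq (GRCm38.p6), used for gene order and promoters.

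Each unbound label names its replicate, and deviations of same-numbered samples correlated at 0.27, 0.16 and 0.10 across genes, so pairs were taken as a block in an alternative fit. Every tested member is named. Untested ones are counted, with those nearest the limit or discussed with a relative named. The members and lists were chosen with earlier results of these data known. The alternatives tried were 6 other scalings, 3 other treatments of low values, 2 other uses of probe sets, limma-trend, the block and leaving out each array.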

Additional observations from a re-analysis of the deposited data

How the results depend on the processing

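The counts moved with the scaling between groups, which were normalised separately, and with the filter and single arrays. With array medians over all probe sets, array medians over expressed ones, quantile normalisation and the poly-A controls, 3581, 2563, 2514 and 35 genes were higher and 2057, 2686, 2473 and 9992 lower. These were 33.9%, 24.2%, 23.9% and 0.34% higher and 19.5%, 25.4%, 23.5% and 97.1% lower, of all genes tested. Of the members, 7, 6, 7 and 0 were higher and 15, 17, 16 and 45 lower in these settings. Without any scaling 4 members were higher and 24 lower, and the share of lower among all calls was 71.4% in place of 79.8%. With a limit of log2 7, 3 members were higher and 17 lower, and with values below the limit set to it 4 were higher and 23 lower. Testing every probe set by itself gave 1748 higher and 7233 lower probe sets. Leaving out each array in turn gave 778 to 1173 genes higher (7.5% to 12.7% of those tested) and 2783 to 4606 lower (30.1% to 44.4%). Of the members, 2 to 4 were then higher and 14 to 32 lower. The shift to the biotin controls was recomputed without the array left out. Without an unbound array fewer genes pass the filter, by its construction. The members fell to 2 higher without IP replicate 1 or without unbound replicate 3. The lowest counts of lower members were 14, 17 and 16, of 35, 34 and 34 tested, without unbound replicate 1, 2 and 3.

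With the pairs as a replicate block, 4 members were higher and 30 lower, and 1108 genes were higher and 4360 lower. The block changed no call of the 48 tested members. Own biotin controls, no filter, every probe set by itself and limma-trend changed no call of the 48 tested members either, but own biotin controls tested 49 members (4 higher, 31 lower) and no filter 78 (5 higher, 34 lower).

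Changes that turned sign were as follows. With array medians over all probe sets these were Kcna4 (0.66), Kcnc4 (0.53), Kcnd2 (0.14), Kcnip1 (0.54), Kcnip2 (0.68), Kcnj14 (0.14), Kcnk1 (0.021), Kcnk3 (0.83), Kcnq3 (0.29), Kcnq5 (0.67), Kcns2 (0.92), Kcnt1 (0.15), Amigo1 (0.49), Pex5l (0.12), Dlg2 (0.57) and Vapa (0.64). With medians over expressed probe sets they were Kcna4 (0.31), Kcnc4 (0.18), Kcnip1 (0.19), Kcnip2 (0.33), Kcnk3 (0.48), Kcnq5 (0.32), Kcns2 (0.58), Amigo1 (0.14), Dlg2 (0.22) and Vapa (0.29). Quantile normalisation turned Kcna4 (0.37), Kcnd1 (0.37), Kcnip1 (0.22), Kcnip2 (0.62), Kcnj14 (0.48), Kcnk3 (0.72), Kcnq5 (0.53), Kcns2 (0.56), Kcnt1 (0.26), Amigo1 (0.10), Pex5l (0.012) and Dlg2 (0.36). The poly-A controls turned Kcna5 (-0.58), Kcnf1 (-2.41), Kcnj11 (-1.66), Kcnmb4 (-2.02), Kcnu1 (-1.65), Dpp6 (-2.62), Dpp10 (-2.54) and Cntnap2 (-1.96). No scaling turned Kcnk3 (0.031) and Kcns2 (0.13), and the mean of probe sets turned Kcns2 (0.95), Dpp6 (-0.16), Amigo1 (0.25), Cntnap2 (-0.36) and Dlg2 (0.41). Leaving out arrays moved Kcns2 between -0.23 and 0.077 and Dpp6 between -0.076 and 0.16. Beyond the scaling itself, the causes were not tested. Signal near the detection limit restricts the members below it in IP to lower bounds.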

Other observations

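RNA genes that carry potassium channel names were also on the array. Kcnq1ot1, the antisense RNA of the Kcnq1 imprinted domain, averaged 1.98 in IP and 3.34 in unbound RNA on the log2 scale, and Kcnmb4os1 and Kcnmb4os2, listed opposite Kcnmb4, averaged 1.99 and 1.99 in IP and 2.17 and 2.44 in unbound RNA. All 3 were below the detection limit of 5 in both groups and were not tested.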
